A study of Mus musculus with 2 samples.

Results

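The endothelin, angiotensin and bradykinin system was described through 9 genes: Edn1, Ece1, Ednra, Ednrb, Agt, Ace, Agtr1a, Bdkrb1 and Bdkrb2. They were chosen by symbol from the 32589 genes of the count matrices, and all 9 were found there. Endothelin-1 is made as a long precursor and cut to the active peptide by endothelin converting enzyme. It constricts vessels and drives growth of heart muscle cells through the ETA receptor, while the ETB receptor on endothelium releases nitric oxide and prostacyclin and clears the peptide. Renin cuts angiotensinogen to angiotensin I, and angiotensin converting enzyme (ACE) turns that into angiotensin II, which acts mainly through the type 1 receptor. ACE also breaks down bradykinin, a vasodilator peptide that signals through a constitutive B2 receptor and an inducible B1 receptor. ETA, the angiotensin type 1 receptor and the bradykinin receptors all couple to Gq and calcium release.

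The measurements were unique molecular identifier (UMI) counts per gene and cell from mouse left ventricle, made hypertrophic by transverse aortic constriction (TAC), an operation that narrows the aortic arch and puts the ventricle under pressure load. One library came from wild-type mice and 1 from p53 knockout mice, both operated, and each was a mixture of 3 hearts taken 6 weeks after surgery. The labels give no age, strain, knockout allele or unoperated control, and the hearts within a library cannot be separated. With 1 library per group no difference could be tested, so every interval printed is a 95% interval that covers counting error only.

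The 2 libraries differed before any member was considered. The wild-type-labelled library held 14763 kept cells with a median of 937 UMIs, and the knockout-labelled library held 9298 with a median of 1567. Trp53, the targeted gene, stood at 38.7 and 55.0 counts per 1000000 nuclear-encoded UMIs (CPM), so it was not lower in the knockout-labelled library. The deleted part of the gene is not given in the labels, and UMIs from outside it would check nothing. The female transcript Xist stood at 2.37 and 929 CPM and genes of the Y chromosome together at 541 and 7.34 CPM, so the libraries also differed in sex markers. Genotype, sex, depth and any other library difference cannot be told apart, and 105 cell barcodes occurred in both libraries. The labelled cell type is cardiomyocytes, but cells with cardiomyocyte markers made up 32.6% and 9.26% of the kept cells. The other large classes were fibroblast-like, vascular endothelial-like and endocardial-like cells, and 10 classes had at least 50 cells in both libraries. Class names rest on marker lists, and neither the members nor 59 other genes of the system were used to find the clusters. Within 4 classes different clusters held most of the cells of each library. These were fibroblast-like cluster 0 against 4, vascular endothelial-like cluster 1 against 7 and 12, endocardial-like cluster 3 against 8 and cardiomyocyte-like clusters 2 and 6 against 9 and 14, so a cluster may be a library rather than a type.

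**Figure D1:**
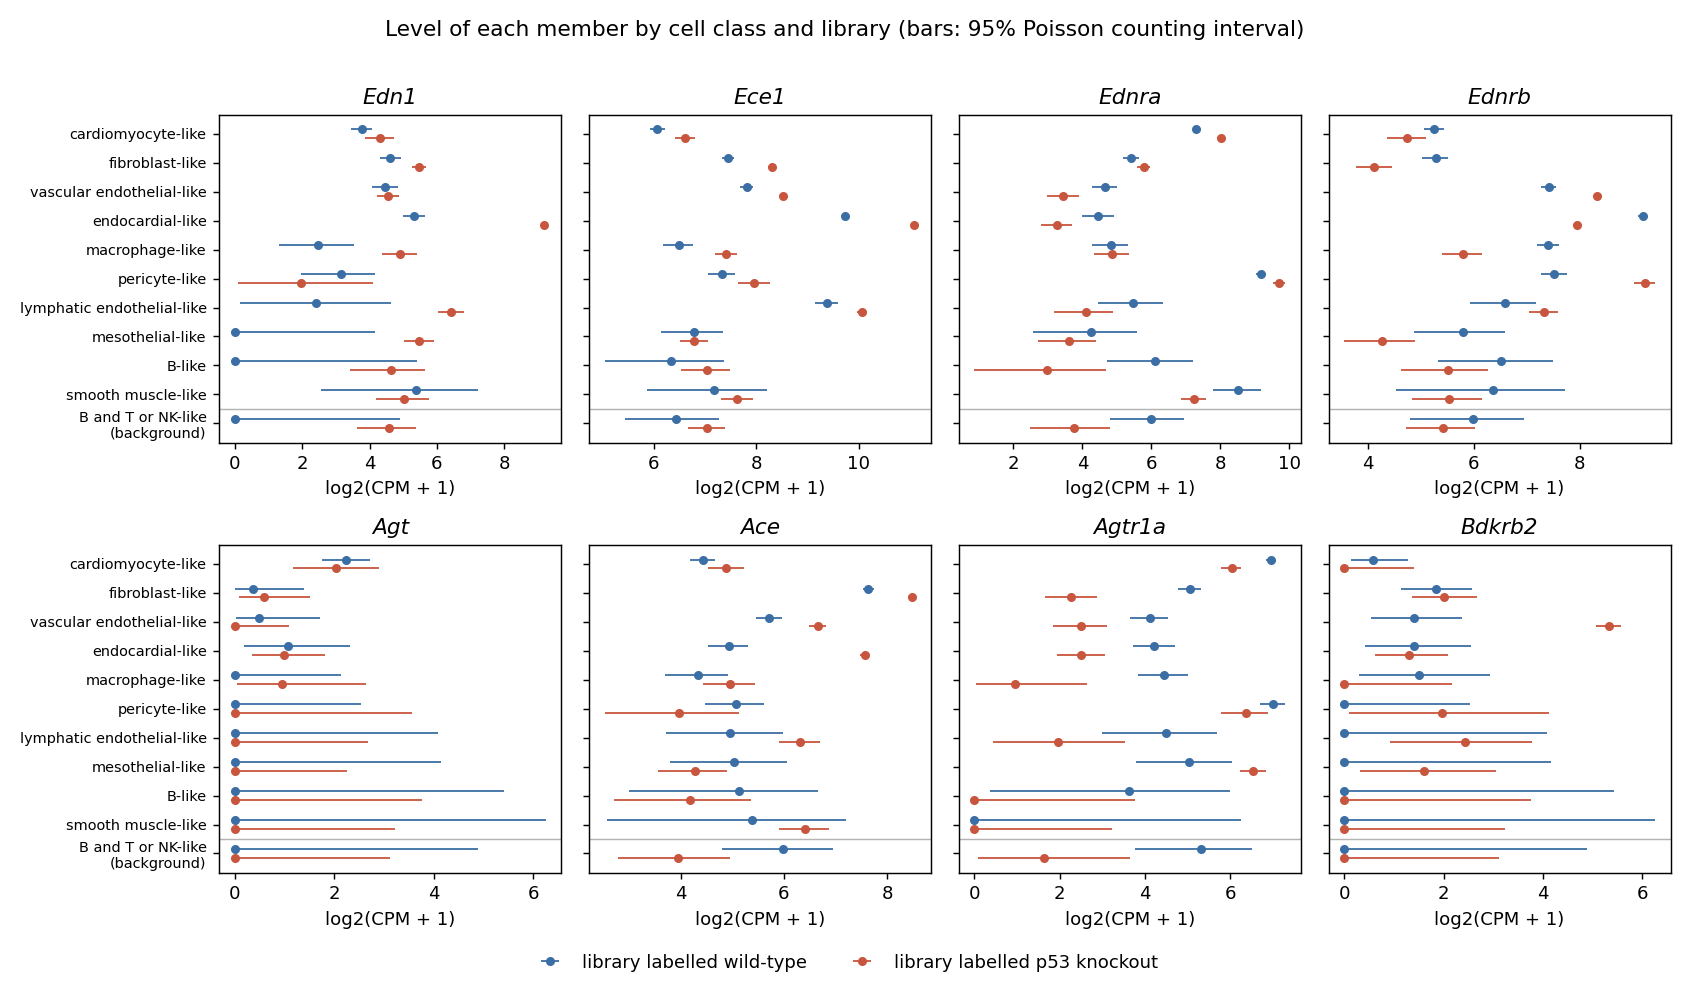
Level of the 8 detected members, as log2(CPM + 1), in each cell class and, at the bottom of each panel, in B-like and T or NK-like cells taken as background; blue is the wild-type-labelled and red the knockout-labelled library, and bars are 95% Poisson intervals. Edn1 in endocardial-like cells of the knockout-labelled library (576 CPM) stands far to the right of every other Edn1 point, and Ednra is highest in pericyte-like cells of both libraries.

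The ligand gene Edn1 (ENSMUSG00000021367, chr13:42301476-42307990 on the plus strand of GRCm38) was concentrated in endocardial-like cells of the knockout-labelled library. Endocardial cells line the chambers of the heart. Endocardial-like cells held 71 Edn1 UMIs (39.3 CPM, 30.7 to 49.6) in the wild-type-labelled library and 2327 UMIs (576 CPM, 552 to 599) in the knockout-labelled library. The log2 ratio of the knockout-labelled over the wild-type-labelled library was 3.86 (3.53 to 4.23), and the intervals of the 2 levels were far apart. Of all Edn1 UMIs, 23.9% lay in endocardial-like cells of the first library and 82.8% in those of the second. In the wild-type-labelled library Edn1 was spread over several classes, with 27.3% of its UMIs in fibroblast-like, 26.3% in cardiomyocyte-like and 17.5% in vascular endothelial-like cells.

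Edn1 was also uneven among endocardial-like cells. In the knockout-labelled library 624 of 1728 cells held a UMI, 270 cells held 3 or more, and the highest cell held 44. In the wild-type-labelled library 52 of 1651 cells held a UMI and 4 held 3 or more. When each cell was thinned to 500 UMIs, the share of endocardial-like cells with Edn1 was 1.70% (1.13 to 2.44) and 16.4% (14.7 to 18.2), against 3.15% and 36.1% without thinning. The same thinned share in lymphoid cells, the background, was 0 of 125 cells, which allows a share of up to 2.40%, and 1.06% (0.291 to 2.70). The wild-type-labelled share was therefore not above what the background allows at this depth, although its level in CPM lay above the 23.3 CPM that 3 counts would be in the background. Median depth of endocardial-like cells was 1005 and 1926 UMIs, and that of B-like cells, the larger part of that background, 873 and 1115.

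Within the endocardial-like class Edn1 followed the cluster as well as the library. Cluster 3, led by H19, Cytl1 and Npr3, had enough cells in both libraries, and Edn1 there was 39.2 CPM against 129 CPM, a log2 ratio of 1.72 (1.25 to 2.20). Cluster 8, led by Nrg1, Selp and Smoc1, held 1284 cells of the knockout-labelled library and 14 of the other, and its Edn1 level was 660 CPM (633 to 688). Edn1 was itself among the 10 leading genes of cluster 8, although it had no part in the clustering. Counting only cluster 3 thus leaves a difference in the same direction and lowers the ratio from 3.86 to 1.72.

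Outside the endocardial-like class no Edn1 level of the knockout-labelled library passed the 84.7 CPM of lymphatic endothelial-like cells. Vascular endothelial-like cells, where endothelin-1 is classically made, held 21.2 and 22.6 CPM, a log2 ratio of 0.09 (-0.44 to 0.64). Within them cluster 7, led by Depp1, Btnl9 and Sema3g, went the other way at 57.0 against 13.8 CPM, from 12 and 27 UMIs. Fibroblast-like cells held 23.6 and 43.5 CPM, a ratio of 0.88 (0.49 to 1.28). In macrophage-like cells Edn1 was at 4.57 and 29.1 CPM. Lymphatic endothelial-like cells held 1 and 58 UMIs, a log2 ratio of 3.72 (1.76 to 9.62). Mesothelial-like cells held 0 and 43 UMIs, which is at least 3.20-fold higher in the knockout-labelled library against a floor of 3 counts in the other. Lymphoid background cells of the knockout-labelled library held 22.9 CPM (11.4 to 40.9), close to the levels of several of these classes, and those of the wild-type-labelled library none. The part of free RNA in the small levels was not tested.

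Ece1 (ENSMUSG00000057530, chr4:137862237-137965229, plus strand), which encodes the enzyme that releases active endothelin-1, was highest in the same class. Endocardial-like cells held 847 CPM (805 to 891) and 2164 CPM (2119 to 2210), a log2 ratio of 1.35 (1.27 to 1.43), from 1529 and 8748 UMIs. The order of classes began alike in both libraries, with endocardial-like, lymphatic endothelial-like (665 and 1074 CPM) and vascular endothelial-like cells (224 and 366 CPM), none of whose intervals overlapped. The next classes, fibroblast-like (173 and 318 CPM) and pericyte-like (160 and 249 CPM), overlapped with each other. In each of these classes, and in macrophage-like (88.7 and 170 CPM) and cardiomyocyte-like cells (66.4 and 96.7 CPM), the level was higher in the knockout-labelled library and the interval of the ratio lay above 0. Mesothelial-like cells had 109 and 110 CPM, and the lymphoid background 85.6 CPM (42.7 to 153) and 131 CPM (101 to 167) with a ratio interval that spans 0. The cardiomyocyte-like, macrophage-like, mesothelial-like and smooth muscle-like intervals, and the pericyte-like one of the wild-type-labelled library, overlapped those of the background or lay below them. In cluster 3 alone the endocardial-like levels were 846 and 1638 CPM, a log2 ratio of 0.95 (0.84 to 1.07). Vascular endothelial-like clusters differed from each other, with 213 and 360 CPM in cluster 1 but 323 and 298 CPM in cluster 7. Of the 624 endocardial-like cells with Edn1 in the knockout-labelled library, 555 also held an Ece1 UMI, and of the 52 in the other library 33 did. The cells also differed in depth, so this overlap is a description.

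**Figure D2:**
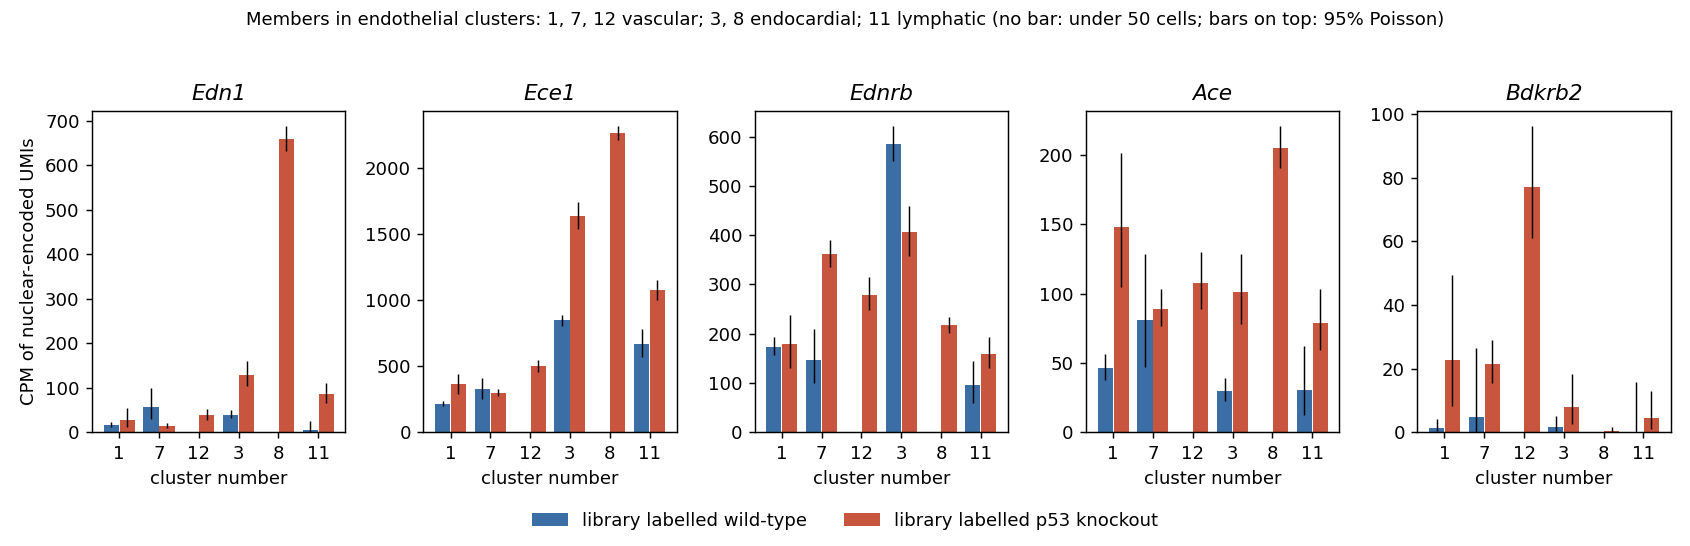
Level in CPM of 5 members in the 6 endothelial clusters, with 95% Poisson intervals; blue bars are the wild-type-labelled and red bars the knockout-labelled library, and a bar is missing where the library has under 50 cells. Edn1 and Ece1 peak in cluster 8 (660 and 2263 CPM), Ednrb in the wild-type-labelled cells of cluster 3 (585 CPM) and Bdkrb2 in cluster 12 (77.2 CPM).

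The ETA receptor gene Ednra (ENSMUSG00000031616, chr8:77663031-77724464, minus strand) was highest in mural cells and heart muscle cells. Pericyte-like cells, which wrap capillaries, had the highest level in both libraries, 579 CPM (527 to 636) and 836 CPM (742 to 939), a log2 ratio of 0.53 (0.31 to 0.75). By UMIs, cardiomyocyte-like cells held more of it than any other class, 55.7% and 44.5% of all Ednra UMIs, at 156 CPM (146 to 166) and 256 CPM (236 to 278). Their log2 ratio was 0.72 (0.57 to 0.87). This ratio came from clusters of unequal make-up. Cluster 14, led among named genes by Myh7, supplied 385 cells and 313 CPM in the knockout-labelled library and 42 cells in the other. Cluster 6 supplied 1342 cells and 175 CPM in the wild-type-labelled library and 44 in the other. With only the clusters that had 50 cells in both libraries, 2 and 9, the ratio was -0.14 (-0.52 to 0.21). In cluster 2 alone Ednra was 162 and 414 CPM, and in cluster 9, rich in mitochondrial RNA, 44.1 and 70.3 CPM. Both clusters had the higher level in the knockout-labelled library. The log2 ratio was 1.37 (0.83 to 1.84) in cluster 2 and 0.67 (-0.04 to 1.40) in cluster 9, where the interval spans 0. The sum over them goes the other way, since that library had 307 cells in the lower cluster 9 and 125 in cluster 2, against 765 and 2659.

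In smooth muscle-like cells Ednra went the other way, at 367 CPM from 18 UMIs against 150 CPM from 66 UMIs, a log2 ratio of -1.32 (-2.06 to -0.45). The markers of this class moved with it. The summed level of the 8 smooth muscle markers was 12914 against 4007 CPM, with none at 0. That of the 10 fibroblast markers was 2550 against 13556 CPM, with 2 and 0 of them at 0, and that of the 10 cardiomyocyte markers 13118 against 1959 CPM, with none at 0. Their part in the difference was not tested. In the wild-type-labelled library the levels of pericyte-like and smooth muscle-like cells overlapped, while in the knockout-labelled library pericyte-like, cardiomyocyte-like, smooth muscle-like and fibroblast-like cells (53.6 CPM) were separated by their intervals. Endothelial classes were low, at 24.0 and 9.92 CPM in vascular endothelial-like and 21.1 and 8.66 CPM in endocardial-like cells. The lymphoid background was 62.2 and 12.5 CPM, so these endothelial levels were not above background. An annotated gene on the opposite strand, 4933431K23Rik, overlaps Ednra and had 400 UMIs, and the sources used here do not say whether counting used strand.

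The ETB receptor gene Ednrb (ENSMUSG00000022122, chr14:103814625-103844402, minus strand) had no single direction. Endocardial-like cells held 581 CPM (546 to 617) and 247 CPM (232 to 263), a log2 ratio of -1.23 (-1.36 to -1.11), so the class with more ligand transcript in the knockout-labelled library had less ETB transcript there. Vascular endothelial-like cells held 170 CPM (154 to 187) and 320 CPM (301 to 340), a ratio of 0.91. Pericyte-like cells held 182 CPM (153 to 215) and 594 CPM (515 to 681), a ratio of 1.70 (1.39 to 2.02). Macrophage-like cells held 168 CPM (145 to 194) and 54.5 CPM (41.4 to 70.5), a ratio of -1.62 (-2.08 to -1.19). Over all kept cells the levels were 134 and 144 CPM. The order of the classes differed in the same way. Endocardial-like cells came first in the wild-type-labelled library, ahead of pericyte-like, vascular endothelial-like and macrophage-like cells, whose intervals overlapped. In the knockout-labelled library pericyte-like, vascular endothelial-like, endocardial-like and lymphatic endothelial-like cells followed each other with separate intervals.

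The levels also differed by cluster. In cluster 3 Ednrb was 585 and 406 CPM, a log2 ratio of -0.53, and cluster 8 of the knockout-labelled library had 217 CPM. In vascular endothelial-like cluster 1 the levels were 173 and 178 CPM, and in cluster 7 they were 147 and 361 CPM. Cluster 12, led by Stc1 and Igfbp5 and nearly all from the knockout-labelled library, had 279 CPM. The lymphoid background for Ednrb was 62.2 and 41.6 CPM, so the macrophage-like level in the knockout-labelled library lay within the background interval. Among pericyte-like cells 40 of 772 and 48 of 217 held a UMI of both endothelin receptor genes.

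To set these levels beside the gene starts, the 250 bases before the RefSeq start of Edn1 and of Ednrb (mouse build GRCm38.p6, printed 5′ to 3′ on the gene's strand) are shown, since the 2 genes went in opposite directions in endocardial-like cells. The Edn1 stretch, chr13:42301226-42301475 on the plus strand, lies next to the first exon. The Ednrb stretch, chr14:103843702-103843951 on the minus strand, lies within an intron of the longest annotated Ednrb transcript. Capitals mark a match to the p53 half-site consensus.
Edn1: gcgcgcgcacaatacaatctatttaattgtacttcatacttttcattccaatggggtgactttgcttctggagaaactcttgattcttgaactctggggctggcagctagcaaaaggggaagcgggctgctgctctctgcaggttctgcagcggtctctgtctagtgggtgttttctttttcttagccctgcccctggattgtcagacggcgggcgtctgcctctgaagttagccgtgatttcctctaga
Ednrb: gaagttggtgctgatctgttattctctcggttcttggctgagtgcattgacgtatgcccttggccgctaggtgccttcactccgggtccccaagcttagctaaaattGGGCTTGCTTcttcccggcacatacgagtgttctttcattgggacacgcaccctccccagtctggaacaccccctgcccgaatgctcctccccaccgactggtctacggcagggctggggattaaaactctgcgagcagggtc
Both strands were searched for the p53 half-site and for the letters TGANTCA of AP-1. They were also searched for GATAA, bound by factors of the GATA family, for ACGTG, the core of the hypoxia response element, and for the box TATAAA. None of the listed motifs overlapped another in these stretches. The Ednrb stretch held 1 p53 half-site, read on both strands, at bases -143 to -134 before the start, and the Edn1 stretch held no match to any of the 5. Of 32851 mouse promoter stretches of this length, 7.13% held a p53 half-site, 6.75% AP-1, 22.6% GATA, 16.6% the hypoxia core and 12.4% TATA. A match is a description of the letters only. Bases past the annotated start were not searched, so the absence of a match holds for the printed letters alone.

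Angiotensinogen transcript was close to the limit of detection. Agt (ENSMUSG00000031980, chr8:124556534-124569706, minus strand), which encodes the precursor of all angiotensins, mainly a liver product, had 27 and 15 UMIs over all kept cells, with a log2 ratio whose interval ran from -2.04 to -0.06. Cardiomyocyte-like cells held 23 and 7 of these, 3.74 CPM (2.37 to 5.60) and 3.12 CPM (1.25 to 6.43), a log2 ratio of -0.19 (-1.72 to 1.01). Among those of 500 to 1500 UMIs the ratio was 1.81 (-0.86 to 3.66), from 9 and 3 UMIs. A difference within cardiomyocyte-like cells was not detectable at this depth.

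Ace (ENSMUSG00000020681, chr11:105967945-105989964, plus strand) had more UMIs in fibroblast-like cells than in any other class. In the wild-type-labelled library vascular endothelial-like and cardiomyocyte-like cells each held 11.9% of them. Fibroblast-like cells held 680 and 1397 UMIs, 198 CPM (184 to 214) and 355 CPM (337 to 374), a log2 ratio of 0.84 (0.71 to 0.98). They were first among the classes in both libraries. In cluster 4, led by Cilp and Postn, the levels were 288 and 361 CPM, a ratio of 0.31 (-0.08 to 0.76) whose interval spans 0. In cluster 0, led by Abca6 and Lvrn, they were 193 and 274 CPM, a ratio of 0.51 (0.11 to 0.87). Both ratios were smaller than that of the class. Next came vascular endothelial-like cells in the wild-type-labelled library and endocardial-like cells in the other. Endocardial-like cells held 29.4 CPM (22.0 to 38.4) and 189 CPM (176 to 203), a log2 ratio of 2.67 (2.28 to 3.12), and their share of all Ace UMIs went from 5.01% to 26.9%. In cluster 3 the levels were 29.7 and 101 CPM, a ratio of 1.77, and cluster 8 had 205 CPM. Vascular endothelial-like cells held 51.3 and 99.8 CPM, a ratio of 0.96 (0.66 to 1.27). The lymphoid background was 62.2 CPM (26.9 to 123) from 8 UMIs and 14.5 CPM from 7 UMIs. Of the 8 UMIs, 5 lay in T or NK-like cells, and B-like cells stood at 34.1 CPM (7.03 to 99.6). The wild-type-labelled endocardial-like and vascular endothelial-like levels were therefore not above background, while the knockout-labelled ones were. After thinning, Ace was found in 7.66% and 12.4% of fibroblast-like cells and in 1.60% and 1.06% of background cells.

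**Figure D3:**
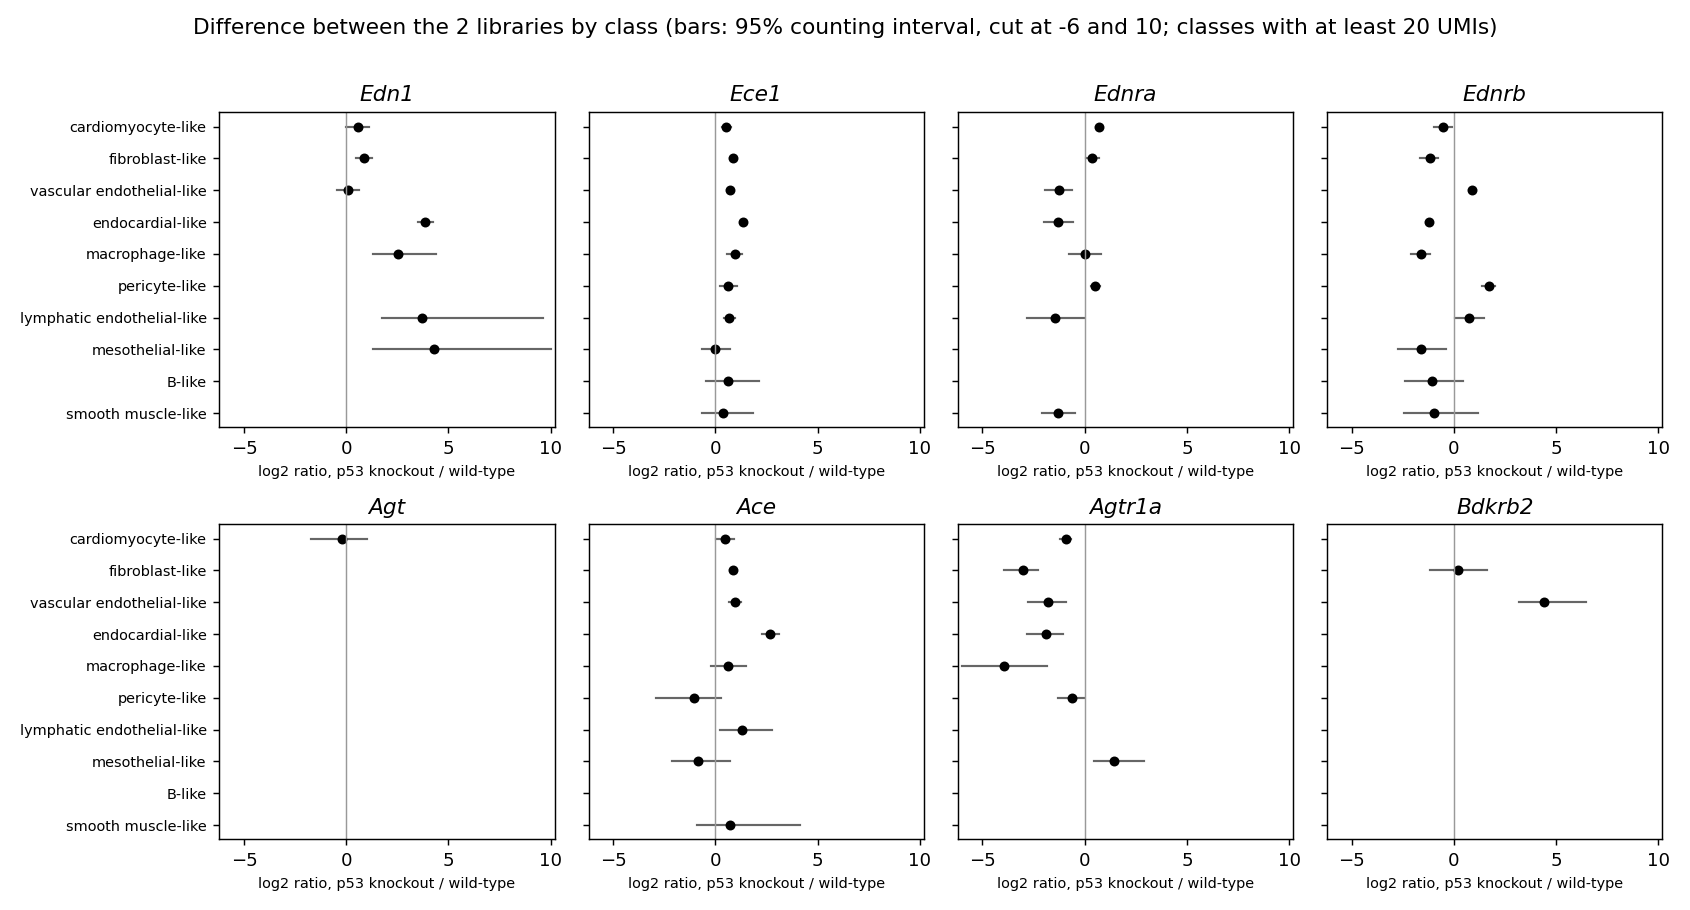
Log2 ratio of the knockout-labelled over the wild-type-labelled library for each detected member and class with at least 20 UMIs, with 95% counting intervals drawn between -6 and 10. Edn1 (3.86) and Ace (2.67) lie to the right of 0 in endocardial-like cells, Ednrb lies on both sides, and Agtr1a is left of 0 in all classes drawn except mesothelial-like cells (1.45).

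The angiotensin type 1a receptor gene Agtr1a (ENSMUSG00000049115, chr13:30336441-30382867, plus strand) was lower in the knockout-labelled library in most classes. Cardiomyocyte-like cells held 757 and 145 UMIs, 123 CPM (114 to 132) and 64.6 CPM (54.6 to 76.1), a log2 ratio of -0.92 (-1.19 to -0.67). Among cardiomyocyte-like cells of 500 to 1500 UMIs, with 301 and 26 Agtr1a UMIs, the ratio was -0.26 (-0.92 to 0.29). Pericyte-like cells were at a similar level, 128 CPM (104 to 156) and 81.9 CPM (54.4 to 118), a ratio of -0.62 (-1.30 to -0.02). In fibroblast-like cells the level was 32.1 and 3.81 CPM, a ratio of -3.03 (-3.96 to -2.29), and in macrophage-like cells it was 21.0 CPM from 23 UMIs and 0.940 CPM from 1 UMI, a ratio of -3.93 (-9.85 to -1.86). Cardiomyocyte-like cluster 2 held 109 CPM from 247 UMIs and 65.4 CPM from 6 UMIs, a ratio of -0.62 (-2.19 to 0.41). Cluster 9 held 38.6 and 57.4 CPM, a ratio of 0.57 (-0.21 to 1.36). Both intervals span 0, so neither cluster had a clear direction. Mesothelial-like cells, which cover the heart, were higher in the knockout-labelled library, with 31.8 CPM (12.8 to 65.6) from 7 UMIs and 92.5 CPM (74.4 to 114) from 91 UMIs, a ratio of 1.45 (0.44 to 2.89). Among mesothelial-like cells of 500 to 1500 UMIs only 5 and 7 Agtr1a UMIs were left, and the ratio was 0.40 (-1.43 to 2.44). Mesothelial-like cells held 28.2% of all Agtr1a UMIs of the knockout-labelled library and 0.649% of those of the other.

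Cardiomyocyte RNA in other cells moved with Agtr1a. The summed level of the 10 cardiomyocyte markers in fibroblast-like cells was 8333 CPM in the wild-type-labelled and 1815 CPM in the knockout-labelled library, with none at 0 in either. It was likewise higher in the wild-type-labelled library in vascular endothelial-like (10381 and 2177 CPM), macrophage-like (8766 and 2479 CPM) and endocardial-like cells (8626 and 1934 CPM). Per 1000 cardiomyocyte marker UMIs, Agtr1a stood at 2.02 and 1.08 UMIs in cardiomyocyte-like cells. It stood at 3.85 and 2.10 in fibroblast-like, 2.40 and 0.379 in macrophage-like, 2.06 and 2.43 in endocardial-like and 1.57 and 2.14 in vascular endothelial-like cells. Pericyte-like cells (14.0 and 34.1) and the mesothelial-like cells of the knockout-labelled library (51.6) stood well above all of these. The lymphoid background of Agtr1a was 38.9 CPM (12.6 to 90.8) from 5 UMIs and 2.08 CPM (0.0526 to 11.6) from 1 UMI. Of the 5 UMIs, 4 lay in T or NK-like cells, while B-like cells stood at 11.4 CPM (0.288 to 63.3) from 1 UMI. B-like cells of the wild-type-labelled library held 14105 CPM of the cardiomyocyte markers and 0.805 Agtr1a UMIs per 1000 marker UMIs. The fibroblast-like, macrophage-like, endocardial-like and vascular endothelial-like values, and the mesothelial-like value of the wild-type-labelled library, were thus not above this background, which rests on few UMIs. The part of cardiomyocyte RNA in their differences was not tested. Agtr1a overlaps Gm48161 on the same strand, which had 111 UMIs. It also has a close paralog, Agtr1b, with 4 and 20 UMIs over all kept cells, whose reads may be shared with it.

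**Figure D4:**
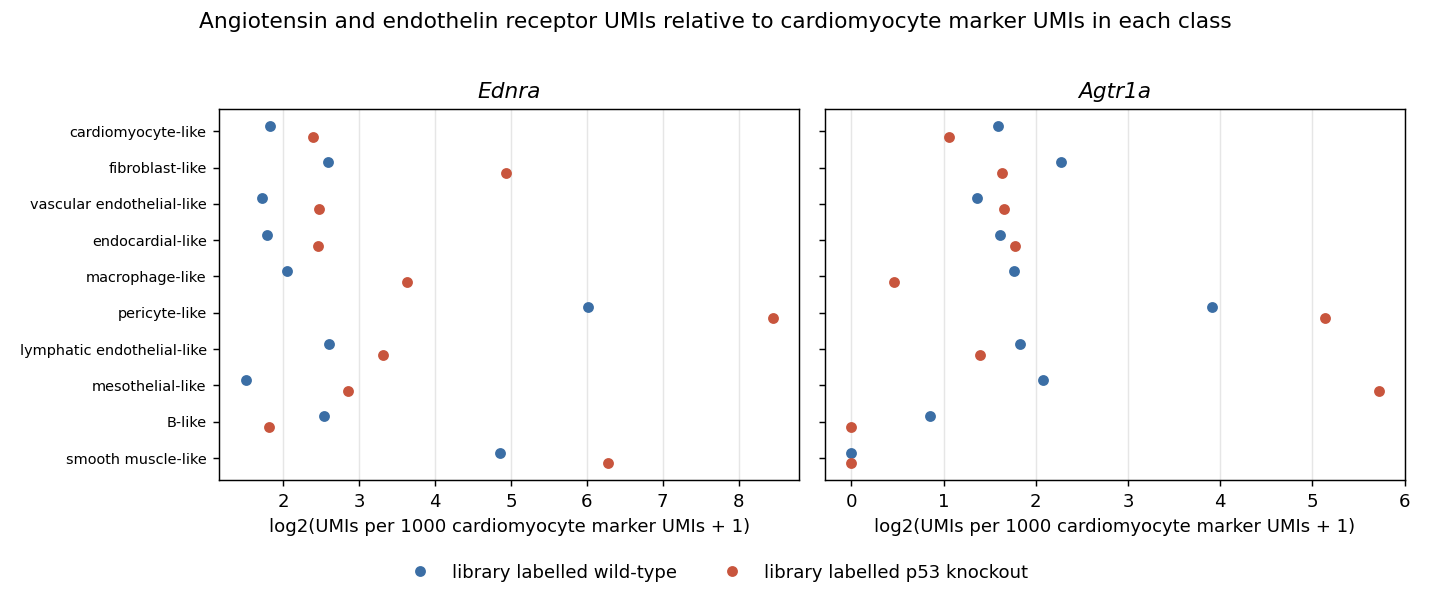
UMIs of Ednra and Agtr1a per 1000 UMIs of the 10 cardiomyocyte markers in each class, as log2(value + 1), for the wild-type-labelled (blue) and knockout-labelled (red) library. For Ednra the pericyte-like (63.5 and 349) and smooth muscle-like points (28.0 and 76.5) stand furthest to the right of the cardiomyocyte-like ones (2.55 and 4.27). The knockout-labelled fibroblast-like (29.6) and macrophage-like points (11.4), among others, also lie to the right of these. For Agtr1a the pericyte-like points (14.0 and 34.1) and the knockout-labelled mesothelial-like point (51.6) stand furthest to the right.

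The bradykinin receptor genes were scarce, and most B2 receptor UMIs came from vascular endothelial-like cells of the knockout-labelled library. Bdkrb1 (ENSMUSG00000041347, chr12:105603085-105605428, plus strand) had 0 UMIs in both libraries, where 3 counts would be 0.183 and 0.162 CPM over all kept cells. Its neighbour Bdkrb2 (ENSMUSG00000021070, chr12:105563226-105595237, plus strand) had 22 and 158 UMIs. Vascular endothelial-like cells held 4 UMIs (1.63 CPM, 0.444 to 4.17) and 126 UMIs (39.1 CPM, 32.5 to 46.5), a log2 ratio of 4.42 (3.19 to 6.48). They contributed 79.7% of the Bdkrb2 UMIs of the knockout-labelled library. Cluster 12 had the highest level, 77.2 CPM (61.0 to 96.3) from 78 UMIs, and cluster 7 had 21.5 CPM from 42 UMIs. In cluster 1, the main wild-type-labelled cluster, the levels were 1.37 CPM from 3 UMIs and 22.7 CPM from 6 UMIs, a ratio of 3.95 (1.83 to 6.68). The share of vascular endothelial-like cells with a UMI was 0.109% (0.0225 to 0.318) and 4.30% (3.44 to 5.30), or 0.0363% and 1.45% after thinning. No background cell held a Bdkrb2 UMI, which allows a share of up to 2.40% and 0.798%.

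Counted together, the members did not share a direction. In endocardial-like cells 6 of the 9 members had the required 20 UMIs. Of these Edn1, Ece1 and Ace were at least 2-fold higher and Ednra, Ednrb and Agtr1a at least 2-fold lower in the knockout-labelled library. Of all genes with 20 UMIs in that class 6.50% were at least 2-fold higher and 10.9% at least 2-fold lower. The Ednra and Agtr1a levels there were not above background. The Ednra ratio was 0.14 (-0.85 to 1.02) among cells of 500 to 1500 UMIs, and the Agtr1a ratio was -0.15 (-1.39 to 0.86) in cluster 3. In vascular endothelial-like cells 1 of 7 measured members was higher (Bdkrb2) and 2 were lower (Ednra and Agtr1a), where 6.16% and 12.3% of all genes were. Neither of the lower 2 was above background there. In fibroblast-like cells 0 of 7 were higher and 2 lower (Ednrb and Agtr1a), beside 6.30% and 11.5% of all genes. Neither of these 2 was above background there, Ednrb at 37.9 and 16.5 CPM. In macrophage-like cells 1 of 6 was higher (Edn1) and 2 lower (Ednrb and Agtr1a), beside 7.31% and 10.9%. The Edn1 and Agtr1a levels there were not above background, nor was that of Ednrb in the knockout-labelled library. In cardiomyocyte-like cells 0 of 7 passed 2-fold in either direction, beside 4.28% and 15.9% of all genes. In pericyte-like cells 1 of 5 was higher (Ednrb) and 1 lower (Ace, from 25 and 5 UMIs), beside 5.36% and 12.2%. The interval of that Ace ratio ran from -2.90 to 0.26, and its levels of 32.6 and 14.6 CPM were not above background. The median log2 ratio of the measured members was 0.06 in endocardial-like, 0.49 in cardiomyocyte-like and 0.71 in vascular endothelial-like cells, beside -0.11, -0.26 and -0.08 for all genes there.

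The libraries held different shares of each class, which bears on values over all kept cells. If every class had kept its wild-type-labelled level and only the make-up of classes had been that of the knockout-labelled library, Edn1 would have gone from 18.1 to 25.1 CPM, where 152 CPM was measured. For Ece1 the same sum gave 318 CPM from 214, with 697 measured, and for Ace 76.9 from 64.4, with 153 measured. For Ednra it gave 71.8 CPM from 105, and 69.8 CPM was measured. For Agtr1a it gave 35.8 CPM from 65.6, with 17.4 measured, and for Ednrb 193 from 134, with 144 measured. For Bdkrb2 it gave 6.14 CPM from 1.34, with 8.53 measured, and for Agt 0.827 CPM from 1.64, with 0.810 measured. Of the 6.14 CPM for Bdkrb2, 4.77 CPM rested on 1 UMI among the 10 unnamed cells of the wild-type-labelled library. The same cells supplied 4.77 CPM of the sums for Edn1 and Ece1 (1 UMI each) and 9.55 CPM of those for Ednra and Ace (2 UMIs each).

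Other genes of the system came from 7 lists of 59 genes in all, every one present in the matrices. Their members are known to act in making, cleaving or sensing the 3 peptides, or downstream of them. In endocardial-like cells 38 were measured, 1 at least 2-fold higher and 8 at least 2-fold lower in the knockout-labelled library, where 6.50% and 10.9% of all genes were. In cardiomyocyte-like cells 1 of 41 was higher and 7 were lower, beside 4.28% and 15.9% of all genes. The counts were 6 and 2 of 40 in fibroblast-like cells (all genes 6.30% and 11.5%) and 2 and 5 of 39 in vascular endothelial-like cells (6.16% and 12.3%). They were 4 and 4 of 35 in macrophage-like cells (7.31% and 10.9%) and 2 and 4 of 36 in pericyte-like cells (5.36% and 12.2%). Among enzymes, Mme, the neprilysin gene, whose product degrades endothelin, angiotensin and bradykinin, was lower in fibroblast-like cells at 116 and 9.92 CPM, a log2 ratio of -3.54 (-4.07 to -3.08). Its ratio lay below 0 too in macrophage-like (-1.71, 18 and 5 UMIs) and cardiomyocyte-like cells (-2.34, 159 and 11 UMIs). The same held for endocardial-like (-3.85, 35 and 5 UMIs) and vascular endothelial-like cells (-4.00, 42 and 3 UMIs, the latter at the floor). In these classes the wild-type-labelled levels were only 16.5 to 25.8 CPM, and the part of free RNA in them was not tested. Dpp4, a peptidase, was lower in endocardial-like cells at 326 and 74.9 CPM. Prcp, a carboxypeptidase that acts on angiotensin and prekallikrein, was 164 and 304 CPM in vascular endothelial-like cells.

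The other ligand and precursor genes were near 0. Edn3 in cardiomyocyte-like cells had 2 and 29 UMIs, a log2 ratio of 5.02 (3.33 to 8.43), and Edn2 had 3 and 3 there. Ren1, the renin gene, had 0 and 18 UMIs in fibroblast-like cells, at least 5.23-fold higher in the knockout-labelled library against that floor of 3 counts. Of the kininogen genes, which encode the bradykinin precursors, Kng1 had 4 UMIs in each library and Kng2 had 9 and 38 over all kept cells. Agtr2 had 1 UMI in each library, and Mas1, the angiotensin 1-7 receptor gene, had 43 and 2 UMIs in cardiomyocyte-like cells, a ratio of -2.66 (-6.06 to -1.03).

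Downstream, genes of the Gq pathway and its brakes were mostly within 2-fold. Of 19 such genes in cardiomyocyte-like cells, where all 19 were measured, 1 passed, where 4.28% of all genes were at least 2-fold higher and 15.9% lower. This was Rgs2, which shortens Gq signals, at 95.3 and 22.3 CPM, a log2 ratio of -2.08 (-2.54 to -1.68). Rcan1, a calcineurin target induced in hypertrophy, was 40.8 and 64.6 CPM there, and Prkce 291 and 325 CPM. In fibroblast-like cells 3 of 19 were at least 2-fold higher, Grk5 (285 and 667 CPM), Plcb3 (25.7 and 63.6 CPM) and Rgs4 (3.50 and 14.7 CPM), and none was 2-fold lower, beside 6.30% and 11.5% of all genes. The same list had 3 higher and 1 lower of 18 in macrophage-like cells (7.31% and 10.9%), 2 and 2 of 18 in pericyte-like cells (5.36% and 12.2%), 0 and 1 of 19 in vascular endothelial-like cells (6.16% and 12.3%) and 1 and 1 of 18 in endocardial-like cells (6.50% and 10.9%). In the vasodilator list of 6 genes, 1 was at least 2-fold higher and 1 lower in vascular endothelial-like cells (all genes 6.16% and 12.3%). The counts were 3 and 0 in fibroblast-like (6.30% and 11.5%) and 0 and 2 in endocardial-like cells (6.50% and 10.9%). They were 0 and 1 in cardiomyocyte-like cells (4.28% and 15.9%), 1 and 0 of 5 in macrophage-like (7.31% and 10.9%) and 0 and 0 of 5 in pericyte-like cells (5.36% and 12.2%). Nos3, the endothelial nitric oxide synthase gene, was 257 and 682 CPM in vascular endothelial-like cells, a ratio of 1.41 (1.28 to 1.54). It was 490 and 419 CPM in endocardial-like cells. Ptgis, the prostacyclin synthase gene, was 136 and 425 CPM in fibroblast-like cells. Ptgs2, the inducible cyclooxygenase gene, went both ways, at 16.3 and 66.9 CPM in fibroblast-like and 167 and 74.7 CPM in endocardial-like cells.

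For each member with at least 100 UMIs the 3 genes of most similar pattern were taken by Pearson r of log2(CPM + 1) over 20 points, 10 classes in 2 libraries. The points share libraries, depth and classes, so these values are descriptions. Edn1 was closest to Inhba (0.81), Txnrd1 (0.80) and Aldh3a1 (0.80), and Ece1 to Cd9 (0.87), Eng (0.87) and Bmx (0.86). Ednra was closest to Map3k20 (0.93), Slc25a33 (0.92) and Cspg4 (0.90), and Ednrb to Cbfa2t3 (0.89), Acer2 (0.85) and Arhgap31 (0.84). For Ace they were Fbln2 (0.83), Emp1 (0.79) and Dpysl3 (0.78), for Agtr1a Sh3rf2 (0.87), Acaa2 (0.84) and Vezf1 (0.82), and for Bdkrb2 Grrp1 (0.72), Asah2 (0.68) and Hdx (0.67). Among the members the highest value was that of Edn1 with Ece1 (0.59), while the receptor genes Ednra and Ednrb were at 0.03.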

How the data were processed

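The authors deposited raw UMI counts per gene and cell barcode for 2 libraries, and per the submitters' processing notes Cell Ranger, Seurat and build mm10 were used, with no version given. The labels' protocols name a 10x 3′ kit, yet the barcodes are 3 joined blocks, so the chemistry is not settled. The matrices hold 16060 and 10118 barcodes of at least 500 UMIs and 18897913 and 20918824 UMIs. Cells with at least 200 genes and at most 50% mitochondrial UMIs were kept. Scrublet's own threshold marked 0 cells, so the 8% with the highest scores were removed (1284 and 808). Cells were clustered with scanpy 1.11.5 (2000 variable genes, 30 components, 15 neighbours, Leiden resolution 1). A cluster was called X-like from at least 3 markers of 1 of 18 lists. The thresholds for that were set after the counts were opened, Cdh19 was dropped from the Schwann list because fibroblasts carried it, and a cluster with Gpnmb and Arg1 among its leading genes was left unnamed. Unnamed clusters held 10 and 720 cells. Members and lists were chosen with earlier results of these data known.

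UMIs were summed per class and library and divided by nuclear-encoded UMIs (CPM). Log2 ratios are those of the knockout-labelled over the wild-type-labelled library after adding 0.5 UMI per sum. The intervals are exact Poisson (levels), conditional binomial (ratios) and Clopper-Pearson (shares), all at 95%. The floor for a count of 0 is 3 counts per library and class. The ratios and intervals were tested on simulated data that held counting error only, so that test cannot speak to variation between hearts or libraries. All 9 members are named. Of the other genes of the system, the rule named those with the highest and lowest ratio or the most UMIs in a list. Prcp, Ren1, Edn2, the kininogen genes, Agtr2, Rcan1, Plcb3, Dpp4, Ptgis and Ptgs2 were also named after their values were seen. Gene positions, overlaps and introns came from the GENCODE annotation of GRCm38 and promoters from RefSeq (GRCm38.p6). 1 gene of the lists is not reported here.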

Additional observations from a re-analysis of the deposited data

Results flagged for a closer look

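For 3 members the log2 ratio of the knockout-labelled over the wild-type-labelled library had opposite signs in 2 cell classes, with counting intervals clear of 0 in both. The share of all genes that would meet this rule is not given here, so the count is a description. Ednra, the ETA receptor gene, was at 0.72 in cardiomyocyte-like and -1.32 in smooth muscle-like cells, the latter from 18 and 66 UMIs. The first was -0.14 with only clusters of 50 cells in both libraries, and in the smooth muscle-like class the smooth muscle markers went from 12914 to 4007 CPM and the fibroblast markers from 2550 to 13556 CPM. Ednrb, the ETB receptor gene, was at 1.70 in pericyte-like and -1.62 in macrophage-like cells. Agtr1a, the angiotensin type 1a receptor gene, was at 1.45 in mesothelial-like and -3.03 in fibroblast-like cells. The fibroblast-like level was not above the lymphoid background (32.1 against 38.9 CPM in the wild-type-labelled library, the latter from 5 UMIs). The mesothelial-like ratio was 0.40 (-1.43 to 2.44) among cells of 500 to 1500 UMIs. With 1 library per genotype label the difference between classes was not tested in any of the 3.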

How the results depend on the processing

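The ratio of each of the 8 detected members in its leading class was recomputed under 79 alternatives in all. Of these values 62 stayed within the counting interval, 16 moved outside it and 1, of Ednra, changed the sign of a ratio that was clear of 0. It was the sum over clusters 2 and 9, each with the higher level in the knockout-labelled library by itself (162 and 414 CPM, 44.1 and 70.3 CPM). The interval of the cluster 9 ratio spans 0 (-0.04 to 1.40). In all 4 values had another sign, the other 3 being of Agt, whose interval spans 0. With only clusters of 50 cells in both libraries the log2 ratio was 1.72 for Edn1, 0.95 for Ece1 and -0.53 for Ednrb in endocardial-like cells, -0.14 (from 0.72) for Ednra and -0.63 for Agtr1a in cardiomyocyte-like cells, and 2 members (Edn1 and Bdkrb2) in place of 4 (with Ece1 and Ednrb) were 2-fold apart in their leading class. That class was chosen from the UMIs of both libraries. For Edn1 and Bdkrb2 the wild-type-labelled library alone has most UMIs in fibroblast-like cells (ratios 0.88 and 0.20). For Ednrb the knockout-labelled library alone has most in vascular endothelial-like cells (ratio 0.91), so this count is a description. Of all genes, 6.50% were at least 2-fold higher and 10.9% lower in endocardial-like cells, and 6.16% and 12.3% in vascular endothelial-like cells. The shares were 4.28% and 15.9% in cardiomyocyte-like and 6.30% and 11.5% in fibroblast-like cells, all without that restriction to clusters. With cells of 500 to 1500 UMIs the log2 ratio was 3.01 for Edn1, 1.14 for Ece1, 0.60 for Ace, -0.26 for Agtr1a and 1.81 for Agt, the last from 9 and 3 UMIs. Median-of-ratios scaling, which shifted the median of all genes by 0.27 in cardiomyocyte-like cells, gave 1.45 for Ece1, 0.99 for Ednra and -0.66 for Agtr1a. Ednrb was at -1.41 with at least 500 genes per cell and -1.36 at resolution 2. Of the alternatives chosen after seeing the data, leaving out the cardiomyocyte-like cluster rich in mitochondrial RNA gave 0.89 for Ednra, and keeping Cdh19 as a Schwann marker gave 0.31 for Ace. For 46 other ratios, 428 alternatives gave 406 values within the interval, 20 outside and 2 that turned a ratio clear of 0: Ednra in endocardial-like cells (0.14, cells of 500 to 1500 UMIs) and Ace in cardiomyocyte-like cells (-0.00, without the cluster rich in mitochondrial RNA). In all 12 values had another sign, and apart from the Ednra and Ace ratios just named these were of ratios whose interval spans 0.

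Without thinning, the share of cells with a UMI, in the wild-type-labelled and the knockout-labelled library, was 3.15% and 36.1% for Edn1, 45.7% and 80.1% for Ece1 and 30.2% and 26.9% for Ednrb in endocardial-like cells. It was 12.5% and 26.0% for Ednra and 10.4% and 11.1% for Agtr1a in cardiomyocyte-like cells, and 14.8% and 33.2% for Ace in fibroblast-like cells. It was 0.395% for Agt in cardiomyocyte-like cells of the wild-type-labelled library and 4.30% for Bdkrb2 in vascular endothelial-like cells of the other. No paired analysis was possible because each group is 1 library. Depth limits Agt (27 and 15 UMIs) and Bdkrb1 (0 UMIs) most. Intervals cover counting error only.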
